A study of Mus musculus with 7 samples.

Results

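The genes described here encode 36 enzymes of glycolysis, glycogen metabolism and the pentose phosphate pathway, listed by symbol and found among the 35013 gene symbols of a count table from sorted mouse β-cells. All 36 symbols were present in the table. The libraries came from 2 KO_db/db, 2 db/db and 3 db/+ mice, with 1 poly-A library per mouse, and the mice were 16 to 20 weeks old and fasted for 16 h before their islets were isolated. db/db mice carry the db mutation of the leptin receptor gene Lepr on both chromosomes and develop obesity and diabetes, whereas db/+ mice carry it on 1 and stay lean. By the genotypes given in the study's results, all 3 groups also carried the RIP-Cre herr transgene, which is driven by an insulin promoter, and a tdT reporter. KO_db/db mice were Aldh1a3 fl/fl, so that Cre can remove both alleles in β-cells, and both control groups were Aldh1a3 fl/+, so that it can remove 1 allele in the same cells. The study's methods name male and female mice, but the sex of each mouse and the gate used to sort these libraries are not given in the sources used here.

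Glycolysis splits glucose into pyruvate. In β-cells the pyruvate mostly enters mitochondria, so that the flux is read out as ATP and triggers insulin release. The pathway is set largely at phosphofructokinase, which is stimulated by fructose 2,6-bisphosphate, a signal molecule made and removed by the PFKFB enzymes, while fructose bisphosphatase runs the same step backwards. The pentose phosphate pathway branches off at glucose 6-phosphate, makes NADPH in its oxidative steps and ribose 5-phosphate for nucleotides in its non-oxidative steps, and glycogen synthase, branching enzyme and phosphorylase store and release glucose.

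Total estimated counts ran from 27496645 to 35852785 per library, and 3 counts, taken here as the detection floor, corresponded to between 0.0717 and 0.123 CPM (counts relative to the library size, which was scaled by TMM). β-cell markers fixed as a list of 10 genes took 34.3% to 38.7% of the counts in db/+, 24.8% and 27% in db/db, and 25.9% and 26.4% in KO_db/db, and none of the 10 was at 0. The targeted gene, Aldh1a3, an aldehyde dehydrogenase that makes retinoic acid, was at 98.4 and 194 CPM in db/db, 4.97 and 7.89 CPM in KO_db/db, and 0.205, 0.0729 and 0.589 CPM in db/+ (5, 2 and 17 counts). It was thus lower in KO_db/db than in db/db (log2 fold change -4.50, SE 0.43, adjusted p = 0.0445, edgeR) but higher than in db/+ (4.44, SE 0.64, adjusted p = 0.00327, edgeR), as counts over the whole gene, which do not separate the floxed part from the rest. The first of these calls was lost without db/db mouse 1 (log2 fold change -4.90, adjusted p = 0.0581, edgeR). A list of 35 acinar genes took 17.3% of the counts in KO_db/db mouse 1 and 1.95% in KO_db/db mouse 2, but at most 0.0558% in any db/db or db/+ library. Of this list 1 gene, Ptf1a, was at 0 in both db/db libraries, 2, Prss1 and Ptf1a, were at 0 in all 3 db/+ libraries, and none was at 0 in KO_db/db. All results that involve KO_db/db carry these acinar counts with them, and their part in those results was not tested. Removing the acinar, Reg and insulin genes before the fit changed no call among the enzyme genes given below. That removal takes out only the listed rows and leaves any enzyme transcripts of acinar cells in place, so it does not test their part. The list of 8 α-cell genes summed to 3035 and 3363 CPM in db/db, beside 1439 to 2105 CPM in db/+ and 1544 and 2067 CPM in KO_db/db. Most of this came from Ttr (1907 and 1716 CPM in db/db) and Gc (675 and 737 CPM), whereas glucagon (Gcg), the hormone that defines these cells, was at 602 and 349 CPM in db/db and 381 to 1181 CPM in db/+. The 8 ductal genes, mostly Krt7 and Epcam, summed to 408 and 559 CPM in db/db and 438 and 501 CPM in KO_db/db, above the 292 to 309 CPM of db/+. In db/db against db/+, where 19.9% of all genes rose and 18.0% fell in the test described with the enzymes, 2 of 31 tested acinar genes rose, 2 of 7 α-cell genes rose and 1 fell, 3 of 5 ductal genes rose, 2 of 6 δ- and PP-cell genes fell (Sst and Rbp4), 2 of 7 endothelial genes rose (Plvap and Flt1), 1 of 4 leukocyte genes fell (Cd79a), none of 2 stellate and smooth muscle genes passed, and 9 of 10 β-cell genes fell. In KO_db/db against db/+, where 20.5% of all genes rose and 17.9% fell, 31 of 32 acinar, 6 of 6 Reg and 5 of 7 ductal genes rose, 3 of 7 α-cell genes rose and 1 fell, 2 of 6 endothelial genes rose and 1 fell, and 7 of 10 β-cell genes fell. No α-cell or ductal gene of the lists was at 0 in a whole group. Their part in the enzyme results was not tested. In sorted bulk samples, fewer cells of a type and less RNA per cell cannot be told apart.

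Summed over the 36 genes, the scaled level was 2723, 2843 and 2729 CPM in the db/+ mice, 3418 and 2287 CPM in the db/db mice, and 2733 and 2540 CPM in the KO_db/db mice. On this scale the db/db mice thus stood on either side of the other 5 libraries. Their share of the unscaled counts was 0.237%, 0.249% and 0.238% in db/+, 0.411% and 0.282% in db/db, and 0.242% and 0.292% in KO_db/db. By that share db/db mouse 2 lay above every db/+ library, so its position depends on the scaling. Levels between genes can be compared only per length, here CPM per kilobase of exon. On that scale Pkm (pyruvate kinase), Aldoa (aldolase) and Gapdh (glyceraldehyde 3-phosphate dehydrogenase) were the 3 highest in every group. In db/+ they reached 123 ± 3.21, 118 ± 11.4 and 116 ± 7.34 CPM per kilobase (SD, n = 3). Their order in db/+ was not beyond the spread of the libraries. Pgam1 (phosphoglycerate mutase) followed in db/+, and Prps1, which makes phosphoribosyl pyrophosphate from ribose 5-phosphate, came next.

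At the other end, 4 of the 36 genes did not pass the filter on low counts in any comparison. These were Hk1 and Hk2, the low-Km hexokinases of most other tissues, and the muscle isoforms Pgam2 and Pygm. Hk1 had between 0.0692 and 0.780 CPM, with at most 19 counts in a library. Hk2 had at most 8 counts, Pgam2 at most 1 and Pygm at most 2. The highest value of Hk1 and of Hk2 was in KO_db/db mouse 1, the library with the most acinar counts.

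**Figure D1:**
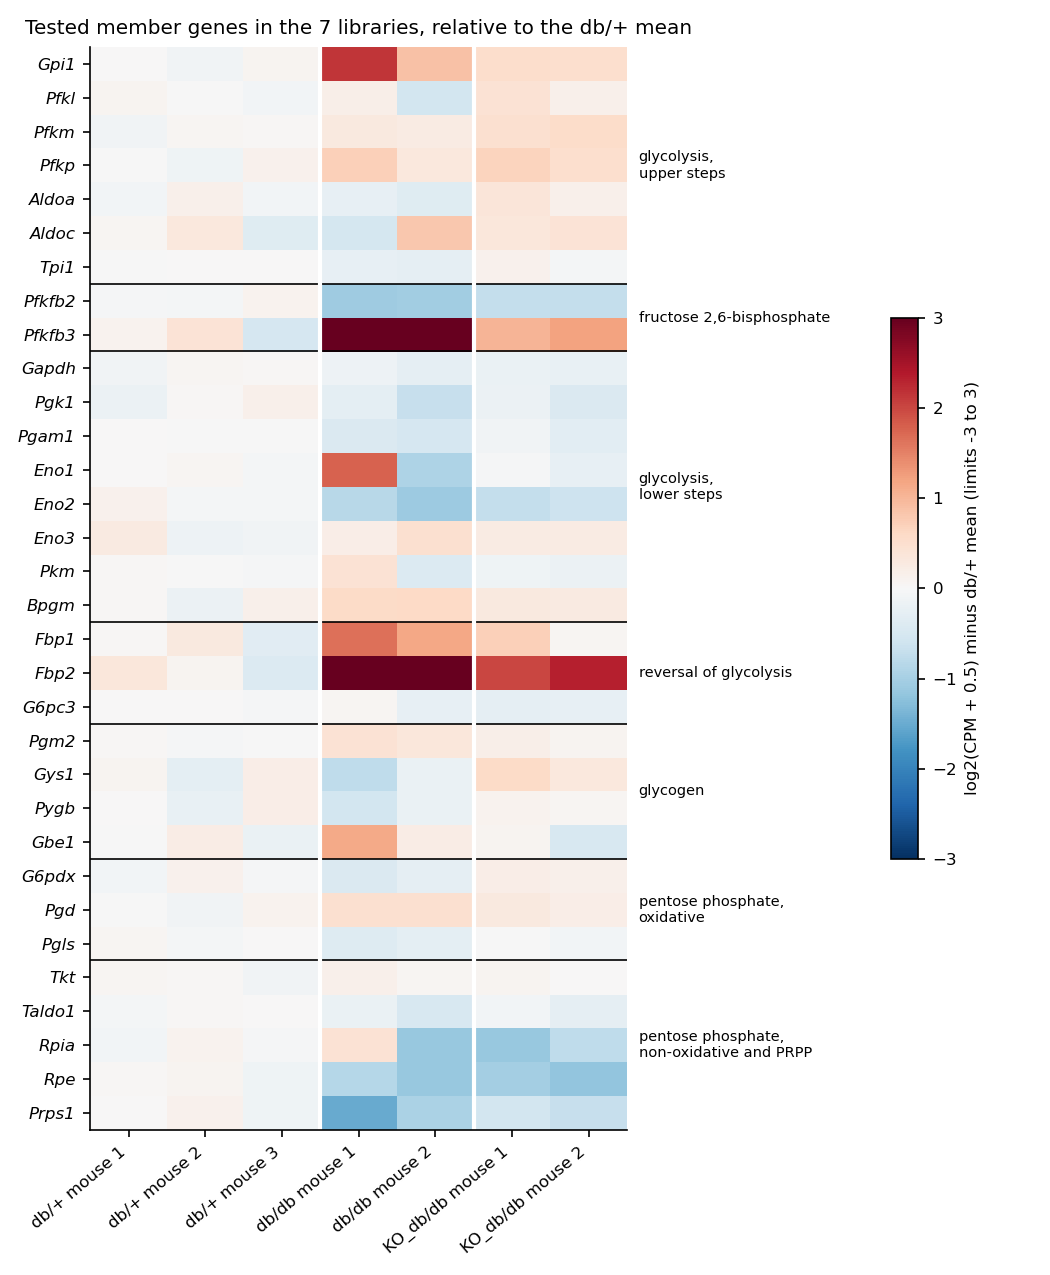
The 32 enzyme genes that passed the filter (rows, grouped by role) in the 7 libraries (columns). Colour gives log2(CPM + 0.5) minus the mean of the 3 db/+ libraries, with red higher and blue lower, limited to -3 and 3. Pfkfb3 and Fbp2 are red in both db/db libraries and paler red in both KO_db/db libraries, while Eno1 and Rpia have opposite colours in the 2 db/db libraries.

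The first comparison, db/db against db/+, asks how the enzymes differ between diabetic and lean β-cells. Of the 32 tested genes, 15 changed, which is 46.9% against 37.8% of all 13406 genes tested (edgeR's quasi-likelihood test, Benjamini-Hochberg adjusted p under 0.05 over all genes). Of these 15, 8 rose (25%, against 19.9% of all genes), among them Fbp2, which passed the filter only through its level in db/db, and 7 fell (21.9%, against 18.0%). The shares lie close to those of all genes. The median log2 fold change over the 32 was -0.12, beside 0.01 over all genes, but its sign turned with DESeq2 (0.0257), without a filter (0.0469) and without db/db mouse 2 (0.0894). Their median absolute log2 fold change was 0.45, beside 0.50.

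Among the 7 tested genes of the upper steps of glycolysis, 2 rose, and among the 8 of the lower steps 1 rose and 3 fell. Both PFKFB genes changed, in opposite directions. Both fructose bisphosphatases rose, and the third gene of the reversal group, G6pc3, did not pass the test. Of the 4 tested glycogen genes 1 rose, of the 3 oxidative pentose phosphate genes 1 rose and 1 fell, and of the 5 non-oxidative genes 2 fell.

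The 7 genes that passed the test in db/db against db/+ with a change of at least 2-fold are given first, and all are protein-coding in GENCODE M21 on GRCm38. Pfkfb2 spans chr1:130689182-130729253, Rpe chr1:66700831-66719805, Pfkfb3 chr2:11471433-11554077, Gpi1 chr7:34201330-34230336 and Prps1 chrX:140456613-140476140. Fbp2 (chr13:62836877-62858422) and Fbp1 (chr13:62864753-62888282) lie side by side on the minus strand.

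Pfkfb3 encodes the PFKFB isozyme that mostly makes fructose 2,6-bisphosphate and is known as a hypoxia-inducible and growth-related form. Its level was 3.19, 4.05 and 1.90 CPM in db/+, 91.0 and 34.3 CPM in db/db, and 6.48 and 7.48 CPM in KO_db/db. The 3 groups did not overlap, and db/db mouse 1 stood above db/db mouse 2. Pfkfb3 rose in db/db against db/+ by 4.35 on the log2 scale (SE 0.46, adjusted p = 0.00122, edgeR). Without db/db mouse 1 the log2 fold change was 3.48 and without db/db mouse 2 it was 4.89, past the threshold in both cases.

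Pfkfb2, the isozyme that is prominent in heart and in islets, moved the other way. Its level was 68.4, 67.8 and 75.2 CPM in db/+, 33.3 and 33.9 CPM in db/db, and 42.9 and 42.4 CPM in KO_db/db. Again the groups did not overlap, and here the mice within each diabetic group were close together. Pfkfb2 fell in db/db against db/+ by 1.08 on the log2 scale (SE 0.11, adjusted p = 0.00102, edgeR). Per length, Pfkfb3 thus made up 3.65% ± 1.33 (SD, n = 3) of the 4 PFKFB genes in db/+ and 57.4% ± 17.8 (n = 2) in db/db. In KO_db/db the share was 12.1% ± 1.18 (n = 2).

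Fbp2 encodes the muscle form of fructose 1,6-bisphosphatase and Fbp1 the liver form, and both catalyse the step opposite to phosphofructokinase. Fbp2 was at 0.409, 0.255 and 0.0346 CPM in db/+ (10, 7 and 1 counts), 16.5 and 8.55 CPM in db/db, and 2.38 and 3.13 CPM in KO_db/db. The db/+ libraries lay near or under the detection floor, so the gene was tested only because of its level in the other groups, and the size of the fold rests on few counts. The fitted log2 fold change in db/db was 5.75 (SE 0.61, adjusted p = 0.00120, edgeR). The fit without a filter gave 5.76 on the same counts, which is not separate support. Leaving out 1 library at a time gave between 5.20 and 6.40, with the highest value without db/+ mouse 1.

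Fbp1 was low in all libraries, at 1.39, 1.79 and 0.969 CPM in db/+, 5.34 and 3.65 CPM in db/db, and 2.54 and 1.43 CPM in KO_db/db. The db/db libraries were above all others, and those of KO_db/db overlapped with db/+. Fbp1 rose in db/db against db/+ by 1.69 (log2; SE 0.35, adjusted p = 0.0110, edgeR), which was no longer past the threshold without db/db mouse 1 (log2 fold change 1.39, adjusted p = 0.0630).

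The promoters of Pfkfb3, Fbp2 and Pfkfb2 are shown because these genes act around the phosphofructokinase step, changed in opposite directions and, as seen after the search, hold the E-box letters CACGTG, which carbohydrate-responsive and other basic helix-loop-helix factors can bind, or the shorter ACGTG, the core of the hypoxia response element. Each run is the 250 bases before a RefSeq start on GRCm38.p6, in the direction of the gene, with ACGTG on either strand and CACGTG in capitals. Pfkfb3 has 2 starts in the table, at chr2:11553930-11554179 and chr2:11502091-11502340, both on the minus strand. Fbp2 is shown at chr13:62858401-62858650 and the central of 3 Pfkfb2 windows, the 1 with CACGTG, at chr1:130715822-130716071, also on the minus strand.
Pfkfb3, first start: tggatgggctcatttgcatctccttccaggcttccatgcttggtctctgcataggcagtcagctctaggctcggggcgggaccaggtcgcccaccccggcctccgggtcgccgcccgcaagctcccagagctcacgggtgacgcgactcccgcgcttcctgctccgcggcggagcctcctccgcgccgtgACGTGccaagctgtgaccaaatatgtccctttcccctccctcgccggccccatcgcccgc
Pfkfb3, second start: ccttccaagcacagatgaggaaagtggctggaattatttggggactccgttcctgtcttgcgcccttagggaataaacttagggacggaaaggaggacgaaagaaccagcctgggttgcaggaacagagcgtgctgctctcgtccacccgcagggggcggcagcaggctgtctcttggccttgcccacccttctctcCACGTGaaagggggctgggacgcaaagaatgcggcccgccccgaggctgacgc
Fbp2: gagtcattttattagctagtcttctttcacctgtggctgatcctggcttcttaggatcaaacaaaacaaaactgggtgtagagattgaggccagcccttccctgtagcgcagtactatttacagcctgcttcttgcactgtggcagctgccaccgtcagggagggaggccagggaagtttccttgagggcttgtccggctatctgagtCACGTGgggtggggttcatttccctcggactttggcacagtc
Pfkfb2: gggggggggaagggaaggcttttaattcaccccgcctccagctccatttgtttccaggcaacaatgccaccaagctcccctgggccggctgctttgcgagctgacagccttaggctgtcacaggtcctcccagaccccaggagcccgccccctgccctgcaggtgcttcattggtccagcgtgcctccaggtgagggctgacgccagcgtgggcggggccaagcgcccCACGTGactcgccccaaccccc
The capitals begin 60 and 53 bases before the starts of Pfkfb3, 42 bases before that of Fbp2 and 22 bases before that of Pfkfb2. The first Pfkfb3 window holds ACGTG without CACGTG. Pfkfb3 and Fbp2 were higher in db/db and Pfkfb2 was lower, and the relation of the letters to these changes was not tested. Over windows of 300 bases around the starts of all 36 genes, CACGTG was in 5 of 50 windows (10%), beside 7.15% of all 32851 windows in the table. ACGTG, which includes CACGTG, was in 21 of 50 (42.0%), from 17 of the 36 genes, beside 19.6% of all windows. The windows were not matched for base composition, and the differences in share were not tested. Of the 15 genes that changed in db/db against db/+, 6 held ACGTG in a window and 9 did not, among them Fbp1 and Pfkp, which act at the phosphofructokinase step too, and Eno2, Gpi1, Prps1 and Rpe. A match of letters is a description of the window and not a bound site.

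Gpi1, which interconverts glucose 6-phosphate and fructose 6-phosphate, was at 109.8, 101 and 116 CPM in db/+, 480.4 and 201 CPM in db/db, and 157 and 155 CPM in KO_db/db. The groups did not overlap, but db/db mouse 1 stood far above db/db mouse 2. Gpi1 rose in db/db against db/+ by 1.63 on the log2 scale (SE 0.32, adjusted p = 0.00902, edgeR). It was 0.87 without db/db mouse 1 and 2.12 without db/db mouse 2, past the threshold in both.

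In the non-oxidative branch, Rpe (ribulose phosphate epimerase) was at 30.5, 31.1 and 27.1 CPM in db/+, 16.2 and 13.0 CPM in db/db, and 14.2 and 12.6 CPM in KO_db/db. Both diabetic groups lay below every db/+ library and overlapped with each other. Rpe fell in db/db, with a log2 fold change of -1.03 (SE 0.15, adjusted p = 0.00276, edgeR). Prps1 was at 166, 181 and 151 CPM in db/+, 57.8 and 85.6 CPM in db/db, and 113 and 102 CPM in KO_db/db. The 3 groups did not overlap, with KO_db/db between the others. Prps1 fell in db/db, with a log2 fold change of -1.22 (SE 0.19, adjusted p = 0.00374, edgeR). Prps1l3, a near-identical copy, had 10.8 to 22.6 CPM, and adding it to Prps1 changed no call.

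The other changes in db/db against db/+ were smaller than 2-fold. Pfkp, the platelet form of phosphofructokinase, rose by 0.53 on the log2 scale (adjusted p = 0.0491, edgeR), Bpgm, which makes 2,3-bisphosphoglycerate, by 0.58, Pgd, the second NADPH-making step of the oxidative branch, by 0.47, and Pgm2, a phosphoglucomutase, by 0.39. Pgm1 and Pgm2 exchanged symbols between annotation releases, so which of the 2 genes this row counts is uncertain. Pgk1 (phosphoglycerate kinase) fell by 0.51 on the log2 scale, Pgam1 by 0.48 and Pgls (lactonase of the oxidative branch) by 0.35. Eno2, the neuronal enolase, fell by 0.99, from 51.0, 44.8 and 44.8 CPM in db/+ to 25.9 and 21.6 CPM. The calls of Pfkp, Pgk1, Pgm2 and Pgls were lost in at least 4 of the 5 fits that left out 1 library, and those of Pgam1, Bpgm and Pgd without db/+ mouse 1 (adjusted p = 0.0502, 0.0531 and 0.0601, edgeR). The call of Pgd was also lost without db/+ mouse 2 (adjusted p = 0.0665, edgeR). Their log2 fold changes stayed on the same side of 0.

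**Figure D2:**
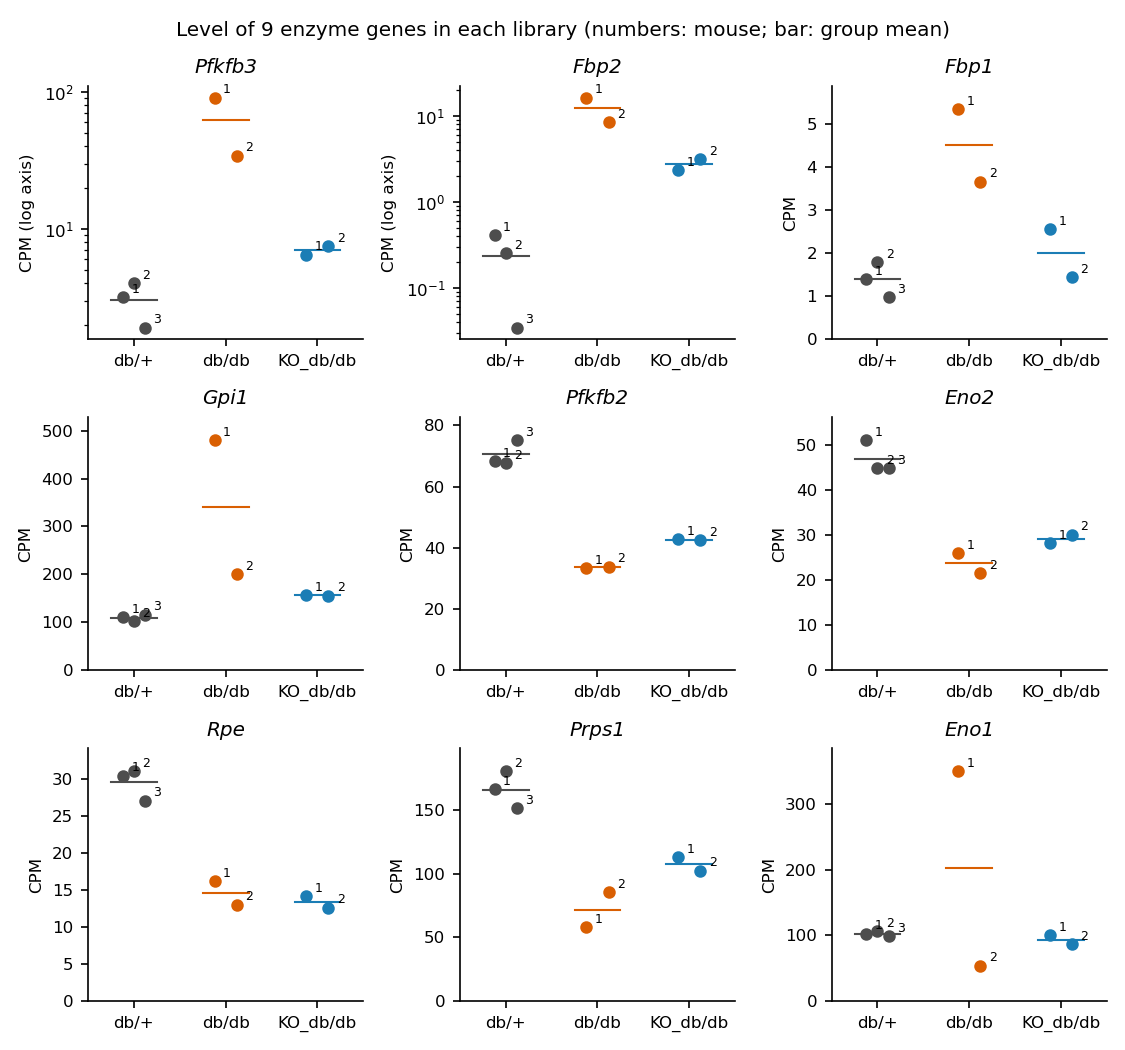
Level of 9 enzyme genes in CPM, 1 point per library with the number of the mouse, and a bar at the group mean. Pfkfb3 and Fbp2 are on log axes and the other panels start at 0. The db/db points of Pfkfb3 (91.0 and 34.3 CPM) and Fbp2 (16.5 and 8.55 CPM) lie above all other points, whereas the 2 db/db points of Eno1, without its copy Eno1b, lie on either side of the rest.

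A further 17 tested genes did not pass the test in this comparison. They were Pfkm and Pfkl, the muscle and liver forms of phosphofructokinase, Aldoa, Aldoc, Tpi1, Gapdh, Eno1, Eno3, Pkm, G6pc3, G6pdx, Tkt, Taldo1, Rpia, Gys1, Pygb and Gbe1. DESeq2 called 4 of the 17, where it called 20.2% of all genes higher and 18.1% lower. These were Gbe1, as higher, and Aldoa, Taldo1 and Tpi1, as lower. The fit without a filter also called Gbe1 higher, along with 14.6% of all genes. Eno1, Gbe1 and Rpia are described here after their values were seen, because of the spread between the db/db mice. Eno1, the main enolase, was at 103, 106 and 99.2 CPM in db/+, 350.3 and 54.0 CPM in db/db, and 100.3 and 86.1 CPM in KO_db/db. The db/db mice lay above and below all others, so that the log2 fold change of 0.96 against db/+ turned to -0.94 without db/db mouse 1 (adjusted p = 0.00361, edgeR). Without db/db mouse 2 it was 1.75 (adjusted p = 6.24e-04, edgeR). The copy Eno1b took 1776 counts in db/db mouse 2 and 0 in the other 6 libraries, and with it added Eno1 was 96.4 CPM in that mouse, within the range of the KO_db/db libraries. With the copy added in all libraries the log2 fold change was 1.105 (adjusted p = 0.0948, edgeR), and it was -0.10 without db/db mouse 1 (adjusted p = 0.511, edgeR), no longer past the threshold.

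Between the 2 db/db mice, 5 of the 32 genes differed at least 2-fold after 0.5 CPM was added to each level, which is the case for 4.81% of all genes. These were Gpi1, Pfkfb3, Eno1 and Rpia, higher in mouse 1, and Aldoc, higher in mouse 2. Between the 2 KO_db/db mice and between any 2 of the db/+ mice, 0 of the 32 differed as much on that scale, against 4.11% and 2.06% to 3.37% of all genes. Without the added 0.5 CPM, the low levels of Pfkfb3 and Fbp2 in db/+ also differed more than 2-fold, by 2.13-fold between mice 2 and 3 for Pfkfb3 and by 11.8-fold and 7.37-fold over mouse 3 for Fbp2. Rpia, ribose phosphate isomerase, was at 26.5 CPM in db/db mouse 1 and 8.60 CPM in mouse 2, with 18.6 to 21.2 CPM in db/+. Gbe1, the glycogen branching enzyme, was at 62.4 and 32.8 CPM in the same 2 mice and 24.6 to 32.9 CPM in db/+.

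**Figure D3:**
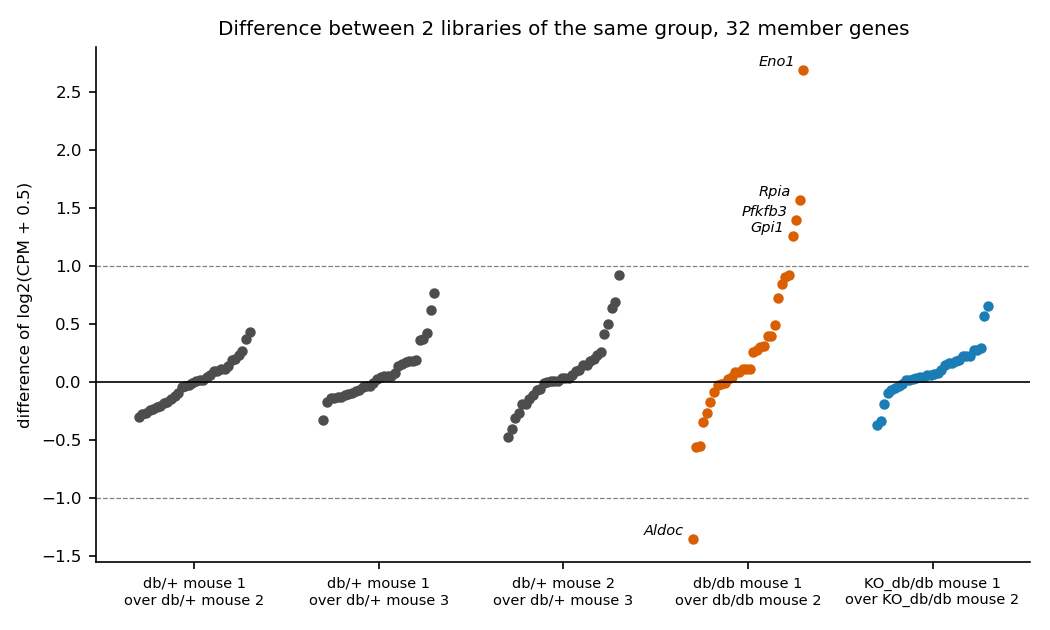
Difference in log2(CPM + 0.5) between 2 libraries of the same group for the 32 tested enzyme genes, 1 point per gene, with dashed lines at a 2-fold difference. The 5 genes beyond the lines are all in the pair of db/db mice, and Eno1 lies farthest from 0.

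The second comparison, KO_db/db against db/db, asks what changes in diabetic β-cells of Aldh1a3 fl/fl mice. None of the 32 tested genes passed the threshold in edgeR's quasi-likelihood test, where 0.319% of all 13486 genes did (0.126% higher and 0.193% lower), and 10 of 32 had an unadjusted p under 0.05, beside 20.9% of all genes. DESeq2 called 5 of the genes, 2 higher and 3 lower, where it called 10% of all genes (5.4% higher, 4.63% lower). The fit without a filter also called 5, 1 higher and 4 lower, where it called 8% of all genes (4.1% higher, 3.9% lower). The fit of all 7 libraries called 1, Pfkfb3, as lower, where it called 5.93% of all genes (3.66% higher, 2.28% lower). The median log2 fold change over the 32 was 0.03, beside -0.02 over all genes.

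Pfkfb3 was lower in both KO_db/db mice (6.48 and 7.48 CPM) than in either db/db mouse (91.0 and 34.3 CPM). The log2 fold change was -3.16 (SE 0.49), with an adjusted p of 0.0844 from edgeR and of 3.58e-12 to 0.156 over the alternatives. DESeq2, the fit without a filter, the fit of all 7 libraries (adjusted p = 0.0192) and the fit without db/db mouse 2 (log2 fold change -3.70, adjusted p = 0.0108) placed it past the threshold. Without db/db mouse 1 it was -2.30. For Fbp2 the log2 fold change was -2.17 (SE 0.38, adjusted p = 0.0899, edgeR, and 2.07e-05 to 0.221 over the alternatives), and the levels of the 2 groups did not overlap.

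Gpi1 differed by -1.12 on the log2 scale (SE 0.41, adjusted p = 0.217, edgeR) and Fbp1 by -1.19 (SE 0.42, adjusted p = 0.208, edgeR). Gpi1 was called lower by DESeq2 (adjusted p = 0.0196) and by the fit without a filter (adjusted p = 0.0112, edgeR). The value of Gpi1 was -0.36 without db/db mouse 1 and -1.62 without db/db mouse 2 (adjusted p = 0.0410, edgeR). Pfkfb2 (0.34), Prps1 (0.58) and Rpe (-0.12) also did not pass the test, and the value of Rpe turned to 0.04 without db/db mouse 1. Gys1, glycogen synthase, which DESeq2 and the fit without a filter called, was at 6.51 and 9.77 CPM in db/db and 17.3 and 14.3 CPM in KO_db/db (log2 fold change 0.95, adjusted p = 0.151, edgeR). Gbe1, called by the fit without a filter alone, had a log2 fold change of -0.93 (adjusted p = 0.234, edgeR). Aldoa, called by DESeq2 alone, had a log2 fold change of 0.56 (adjusted p = 0.171, edgeR).

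The third comparison, KO_db/db against db/+, asks how far β-cells of diabetic Aldh1a3 fl/fl mice differ from lean ones. It shares the db/+ libraries with the first comparison and the KO_db/db libraries with the second, so the values are set side by side and not combined. Of the 32 tested genes 10 changed (31.2%, against 38.4% of all 13228 genes), of which 5 rose (15.6%, against 20.5%) and 5 fell (15.6%, against 17.9%). The fit of all 7 libraries called 3 of them higher, where it called 18.3% of all genes higher. The median log2 fold change was 0.07, beside -0.0034 over all genes.

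Pfkfb3 rose by 1.20 on the log2 scale (SE 0.32, adjusted p = 0.0250, edgeR), where db/db against db/+ had 4.35. This call was lost in the fit of all 7 libraries (adjusted p = 0.0704) and when either KO_db/db mouse or db/+ mouse 1 was left out, with log2 fold changes of 0.96 to 1.47 over the single-library runs. Fbp2, again tested through its level in the diabetic group, rose by 3.58 (SE 0.73, adjusted p = 0.0104, edgeR), beside 5.75 in db/db, and gave 3.06 to 4.24 when 1 library was left out. Without KO_db/db mouse 2 its adjusted p was 0.0503. Gpi1 rose by 0.53 (SE 0.09, adjusted p = 0.00680, edgeR), beside 1.63 in db/db, a call that was lost in the fit of all 7 libraries (adjusted p = 0.222). Fbp1 had 0.52 and did not pass the test.

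Pfkm (log2 fold change 0.52, adjusted p = 0.00596, edgeR) and Pfkp (0.60, adjusted p = 0.0124, edgeR) also rose, the latter no longer past the threshold without KO_db/db mouse 1 (adjusted p = 0.0685). Pfkm was at 67.6 and 70.2 CPM in KO_db/db, 59.1 and 57.3 CPM in db/db and 45.1 to 50 CPM in db/+. Its KO_db/db libraries were above all others, although the db/db libraries too lay above the db/+ ones.

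Pfkfb2 fell by 0.72 on the log2 scale (SE 0.09, adjusted p = 0.00224, edgeR), beside 1.08 in db/db. Rpe fell by 1.13 (SE 0.12, adjusted p = 0.00134, edgeR), beside 1.03, and Prps1 by 0.62 (SE 0.11, adjusted p = 0.00740, edgeR), beside 1.22. Eno2 fell by 0.68 and Rpia by 0.97. Rpia was at 8.62 and 11.3 CPM in KO_db/db against 18.6, 21.2 and 19.2 CPM in db/+, and its call was lost in the fit of all 7 libraries (adjusted p = 0.105). Bpgm, Pgd, Pgm2, Pgk1, Pgam1 and Pgls, which changed in db/db against db/+, had log2 fold changes of 0.29, 0.26, 0.14, -0.31, -0.20 and -0.04 here and did not pass the test.

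**Figure D4:**
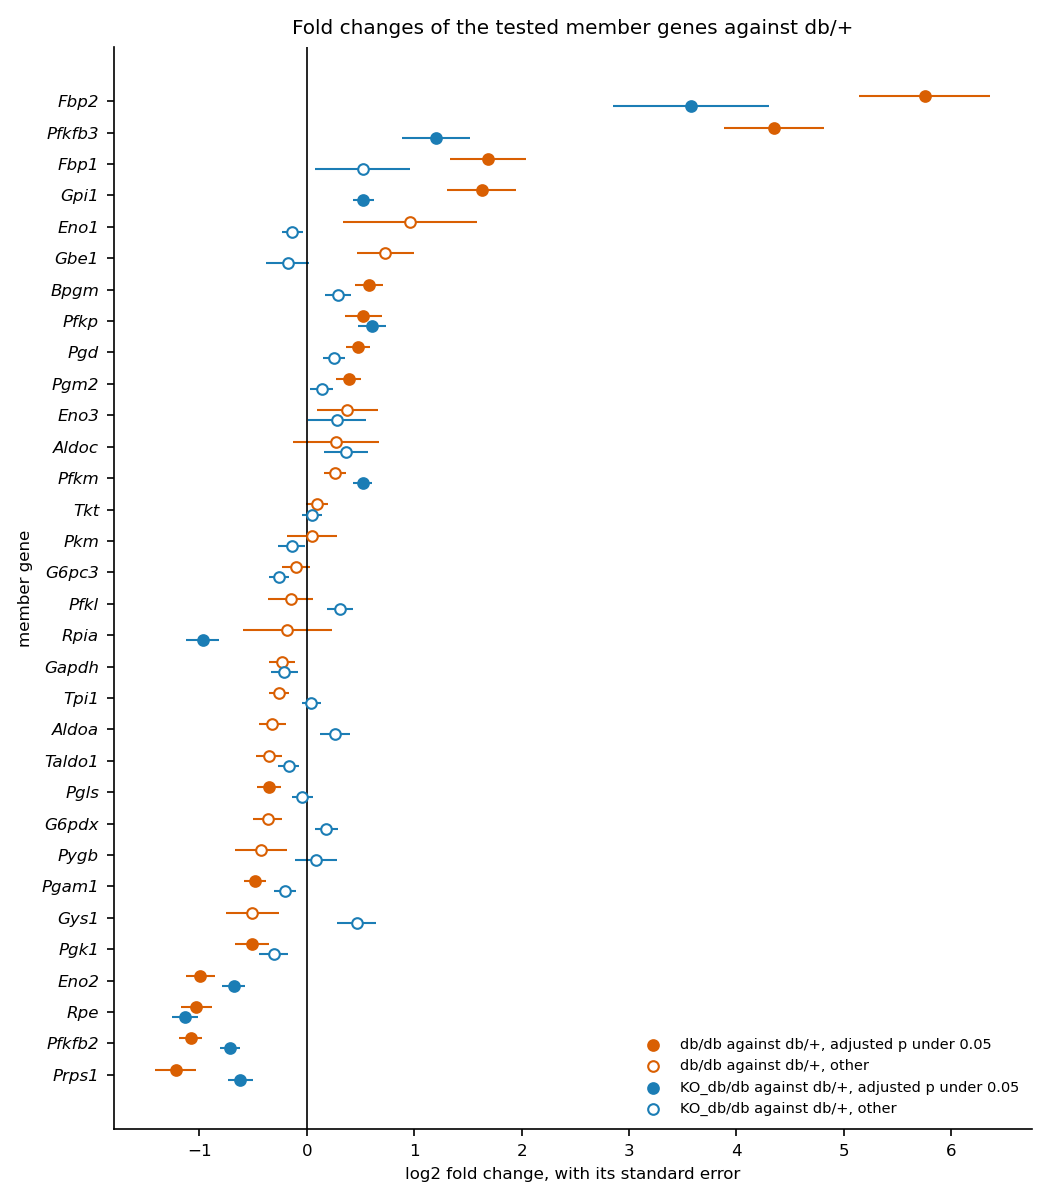
Log2 fold change with its standard error for the 32 tested enzyme genes, in db/db against db/+ (orange) and KO_db/db against db/+ (blue), with filled points past an adjusted p of 0.05. Both comparisons use the same db/+ libraries. Fbp2 (5.75 and 3.58) and Pfkfb3 (4.35 and 1.20) lie farthest to the right, and Prps1 (-1.22 and -0.62) and Rpe (-1.03 and -1.13) are among the lowest.

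Within enzyme families, the make-up was computed per length. Pfkm was the leading phosphofructokinase, with 66.5% ± 2.37 (SD, n = 3) in db/+, 71.1% ± 6.20 (n = 2) in db/db and 69.0% ± 3.41 (n = 2) in KO_db/db. These shares differed by no more than about their spread. Eno1, without its copy Eno1b, held 62.4% ± 2.29 of the enolases in db/+, 74.6% ± 21.5 in db/db and 68.1% ± 3.15 in KO_db/db.

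Among glycogen phosphorylases, Pygb, the brain form, held 67.2%, 68.5% and 70.0% in db/+, 31.7% and 47.2% in db/db, and 62.5% and 53.8% in KO_db/db, with most of the rest from Pygl, the liver form. The 3 groups did not overlap. With the longest transcript as length, Pygl held more than Pygb in KO_db/db too (55.7% and 44.1%). Pygl rose in db/db against db/+ by 1.34 on the log2 scale (SE 0.24, adjusted p = 0.00628, edgeR), while Pygb had -0.42 and did not pass the test. Fbp2 held 3.97% to 25.4% of the fructose bisphosphatases in db/+, 73.1% and 78.1% in db/db, and 52.0% and 71.7% in KO_db/db.

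**Figure D5:**
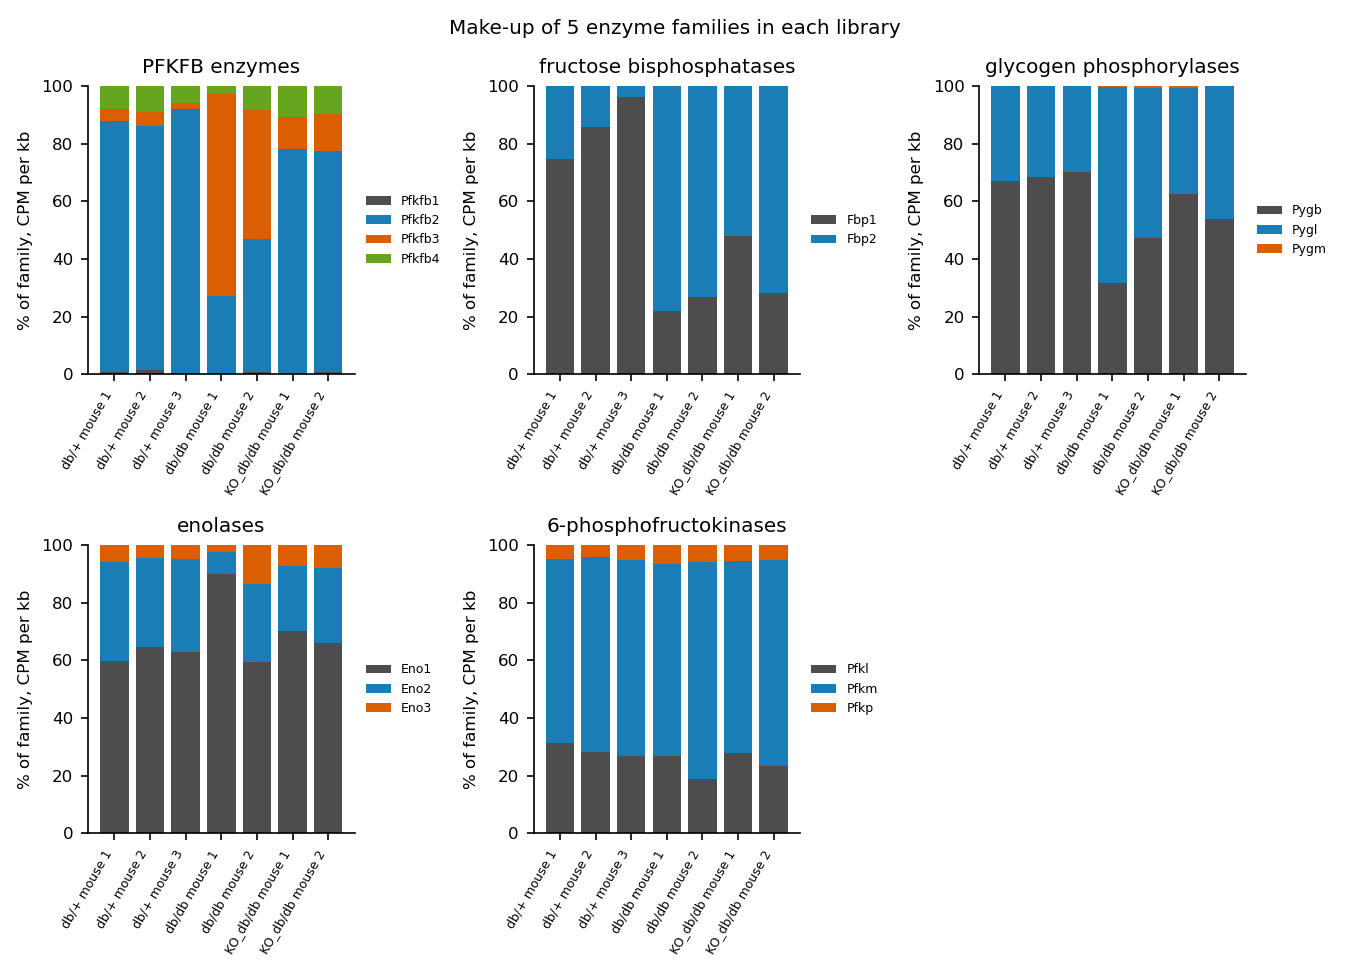
Share of each isozyme in 5 enzyme families, in percent of the summed CPM per kilobase of exon, with 1 stacked bar per library. The PFKFB bars change from mostly Pfkfb2 in db/+ to 70.0% and 44.8% Pfkfb3 in the 2 db/db mice, with 11.3% and 12.9% in the KO_db/db mice. The enolase bar of db/db mouse 1 differs from that of db/db mouse 2.

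Other genes of the same pathways were taken from a list of 52, of which 51 were in the table. In db/db against db/+, 7 of the 39 tested rose (17.9%, against 19.9% of all genes) and 14 fell (35.9%, against 18.0%). In KO_db/db against db/db none of 40 passed the test in edgeR, against 0.319% of all genes, and DESeq2 called 11 of 42 (26.2%, against 10%). In KO_db/db against db/+ 2 of 38 rose (5.26%, against 20.5%) and 12 fell (31.6%, against 17.9%), but in the fit of all 7 libraries 1 of 40 rose (2.5%, against 18.3%) and 6 fell (15%, against 15.1%). The 2 that rose in the pairwise fit were Pygl and Ldha (lactate dehydrogenase A). Ldha had 8, 1 and 1 counts in db/+ and passed the filter only through KO_db/db, with 249 counts in mouse 1, the library with the most acinar counts, and 21 in mouse 2. Slc2a2, the β-cell glucose transporter GLUT2, was at 1206, 1062 and 1155 CPM in db/+, 130 and 66.2 CPM in db/db, and 374 and 230 CPM in KO_db/db. The groups did not overlap, and its log2 fold change in db/db was -3.55 (SE 0.31, adjusted p = 7.66e-04, edgeR). G6pc2, the islet glucose 6-phosphatase catalytic subunit, fell in db/db by 1.41, Khk (ketohexokinase) by 1.38 and Phkb (a phosphorylase kinase subunit) by 1.04.

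Regulators of these enzymes were measured in the same libraries. Of 8 listed, 5 rose and 1 fell in db/db against db/+, where 19.9% of all genes rose and 18.0% fell. In KO_db/db against db/+ 3 rose and 1 fell, where 20.5% of all genes rose and 17.9% fell. The gene that fell was Mlx in both (log2 fold changes -0.66 and -0.48). Epas1, which encodes the hypoxia-inducible factor HIF-2α, was at 0.208 to 0.547 CPM in db/+, 20.4 and 47.4 CPM in db/db, and 5.62 and 8.45 CPM in KO_db/db. Hif1a, the gene of HIF-1α, was at 61.7 to 77.0 CPM in db/+, 41.1 and 59.2 CPM in db/db, and 76.2 and 62.5 CPM in KO_db/db. In db/db against db/+ it had a log2 fold change of -0.51 and did not pass (adjusted p = 0.0687, edgeR). Arnt, also on the list, had 0.29 and did not pass (adjusted p = 0.205, edgeR). Txnip, a glucose-responsive gene that restrains glucose uptake, was at 145 to 232 CPM in db/+, 1802 and 1276 CPM in db/db, and 392 and 119 CPM in KO_db/db. Mlxipl, which encodes the carbohydrate-responsive factor ChREBP, rose by 0.65 on the log2 scale in db/db and by 1.39 in KO_db/db, both against db/+ (adjusted p = 0.0128 and 0.00117, edgeR). The relation of these regulators to the enzymes was not tested.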

How the data were processed

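Poly-A RNA of sorted β-cells from 2 KO_db/db, 2 db/db and 3 db/+ mice was sequenced as reads of 100 bp. The authors deposited estimated counts per gene symbol, made with kallisto 0.44.0 on GRCm38 and bcl2fastq 2.19 per the submitters' processing notes, rounded to whole numbers and not normalized. The annotation release and strandedness are not given in the sources used here, and the table had 0 unused columns. kallisto divides reads that fit several transcripts, so counts of near-identical genes (Eno1 and Eno1b, Prps1 and Prps1l3) are uncertain, as are those of overlapping genes such as Pfkm and Senp1, or Gapdh and Iffo1.

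Fits used only the libraries of the 2 groups compared, in edgeR 4.0.16 (R 4.3.3), with filterByExpr with a minimum count of 10, TMM scaling and the quasi-likelihood test, with Benjamini-Hochberg adjustment over all genes tested and calls made at 0.05. SE is the log2 fold change divided by the root of F. Directions are relative to the bulk of genes, since TMM factors ran from 0.869 to 1.23. CPM values were scaled over all 7 libraries. Lengths are unions of exons in GENCODE M21 (GRCm38), to which 34222 symbols matched. Promoter windows are from RefSeq (GRCm38.p6). Nothing in the labels says more on replicates than 1 mouse per library. Estimates with a pseudocount (0.5 CPM) are only in figures and in differences between libraries. Depth was 27496645 to 35852785 counts.

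The genes and lists were chosen with earlier results of these data known. Full values are given for enzyme genes past the threshold with an absolute log2 fold change of at least 1 in any comparison, and for those whose KO_db/db against db/db call differs between the pairwise fit and that of all 7 libraries. Others are given by range and direction, and any other gene described singly was picked after its values were seen, as were the PFKFB and fructose bisphosphatase families. Neighbours and regulators are named where they passed with at least 1 on the log2 scale and 10 CPM, and Pygl, Ldha, Mlx, Hif1a and Arnt are named in addition. Some genes and families are not reported here. Alternatives were RLE scaling, DESeq2 1.42.0, no filter, all 7 libraries, the mouse number as a block, removal of acinar, Reg and insulin genes, the longest transcript as length, and leaving out each library. Summing near-identical copies was added after the data were seen. On simulated data with 100 genes changed by 1 on the log2 scale, 95, 83 and 94 were recovered in db/db against db/+, KO_db/db against db/db and KO_db/db against db/+, with 12, 7 and 10 other calls. The simulation gave every gene the same fixed spread and changed only well-counted genes, so it does not give the power on the real libraries.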

Additional observations from a re-analysis of the deposited data

How the results depend on the processing

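RLE scaling and the removal of acinar, Reg and insulin genes moved no count or median of the enzyme genes beyond the limits used, and RLE lost 1 call, that of Pgls in db/db against db/+ (adjusted p = 0.0531, edgeR). In KO_db/db against db/db the count of calls depended on the tool and filter. DESeq2 called 2 genes higher and 3 lower, the fit without a filter 1 higher and 4 lower, and the fit of all 7 libraries 1 lower, against 0 and 0. For the other pathway genes these fits gave 7, 7 and 6 higher and 4, 6 and 2 lower. The same fits called 5.4%, 4.1% and 3.66% of all genes higher and 4.63%, 3.9% and 2.28% lower. The median log2 fold change of the enzyme genes was 0.0712 with DESeq2 and 0.0612 without a filter. In KO_db/db against db/+ the fit of all 7 libraries called 3 enzyme genes higher, and 1 higher and 6 lower of the other pathway genes. It called 18.3% of all genes higher and 15.1% lower. DESeq2 and the fit without a filter each called 4 other pathway genes higher (9.52% and 8.16%), beside 20.7% and 14.9% of all genes. The medians of the enzyme genes were 0.17 and 0.15 in those 2 fits. The cause was not tested.

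Same-numbered mice did not deviate together (correlations of -0.10 to 0.076). In a group of 2 libraries the deviations from the group mean mirror each other, so this check cannot tell whether same-numbered mice share a batch. With the mouse number as a block, db/db against db/+ had 7 enzyme genes higher and 5 lower (18.3% and 15.7% of all genes), KO_db/db against db/db had 0 and 0 (0.0667% and 0.0964% of all genes), and KO_db/db against db/+ had 6 and 5 (16.8% and 12.8%). Of the other pathway genes the block left 4 higher in the first, 1 lower in the second and 1 higher in the third of these comparisons.

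With 1 library left out at a time, db/db against db/+ had 4 to 9 enzyme genes higher and 4 to 10 lower, where 14% to 17.8% and 11% to 15.1% of all genes were called, with 3 to 6 other pathway genes higher. The fewest were without db/+ mouse 1, and the most lower, 10, without db/db mouse 1. KO_db/db against db/db had 0 to 4 enzyme genes lower, the 4 being without db/db mouse 2 (Gpi1, Pfkfb3, Eno1 and Fbp2), where 0% to 0.976% of all genes were lower, 0 to 2 other pathway genes higher and 0 to 2 lower, and a median of -0.0187 to 0.263, negative without KO_db/db mouse 1 and without db/db mouse 2. The median of db/db against db/+ was -0.268 to 0.0894, and positive also with DESeq2 and without a filter. KO_db/db against db/+ had 3 to 5 enzyme genes higher, where 12.8% to 20% of all genes were, and 0 to 3 other pathway genes higher and 6 to 10 lower. Over the same fits, 9.42% to 16.4% of all genes were lower in KO_db/db against db/+. In KO_db/db against db/db, 0% to 1.21% of all genes were higher. Where a fit left 1 library in a group, that library was assumed to vary like those of the other group. Among single genes, values that changed sign were those of Eno1 and Rpe without db/db mouse 1 and of Gbe1 without KO_db/db mouse 2. The log2 fold change of Eno1 ranged from -0.94 to 1.75 for db/db against db/+ and from -1.91 to 0.78 for KO_db/db against db/db (with Eno1b added and db/db mouse 1 left out, -0.103 and -0.0535), that of Rpe from -0.274 to 0.0382 for KO_db/db against db/db, and that of Gbe1 from -0.495 to 0.0772 for KO_db/db against db/+.

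With the longest transcript as length, Pfkm held 56.74%, 62.28% and 59.69% in db/+, db/db and KO_db/db, Eno1 73.26% in db/+ and 78.50% in KO_db/db, and Pygb 55.10%, 27.15% and 44.06% in db/+, db/db and KO_db/db. With 2 mice in each group, a simulated 2-fold change was recovered for 83 of 100 genes in KO_db/db against db/db, beside 95 and 94 in the comparisons with db/+. Every simulated gene had the same fixed spread and only well-counted genes were changed, so these shares are not the power of the real fits. In the real KO_db/db against db/db fit, Pfkfb3 did not pass at a log2 fold change of -3.16 (adjusted p = 0.0844, edgeR). None of the 33 tested acinar genes passed there either.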
